A study of Mus musculus with 9 samples.

Results

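The major histocompatibility complex (MHC) class II genes of the mouse thyroid are described here through 7 genes: Cd74, H2-Aa, H2-Ab1, H2-Eb1, H2-DMa, H2-DMb1 and Ciita. They were chosen by name, as the invariant chain, the antigen-binding chains, the peptide-loading chains and the master transactivator of class II presentation, from the 52636 genes of the deposited count matrix, and all 7 were found by their Ensembl identifiers. Single cells were dissociated from thyroids of male C57BL/6 mice and sequenced by a droplet method that counts unique molecular identifiers (UMIs), each of which stands for 1 captured RNA molecule. All mice received a single intraperitoneal injection of antibody and were labelled as treated for 7 days; the design text gives an age of 10 to 12 weeks and the treatment protocol 10 to 14 weeks. The control group, RW, received an anti-ragweed isotype antibody at 40 mg/kg (3 samples), the group aJ1aJ2 received antibodies that block the Notch ligands Jag1 and Jag2 at 20 mg/kg each (3 samples), and the group aN1aN2 received antibodies that block the receptors Notch1 and Notch2 at 5 and 10 mg/kg (3 samples). Each sample is a pool of 6 thyroids, so a value per sample is already a mean over mice and the spread between samples is the spread between pools.

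Class II molecules present peptides from the endosomes to CD4 T cells. An alpha and a beta chain pair in the endoplasmic reticulum with the invariant chain, Cd74, which fills the groove until endosomal proteases such as cathepsin S (Ctss) cut it away, and the H2-DM heterodimer then exchanges the remaining fragment for peptide. Transcription of the whole set depends on Ciita, which binds no DNA itself but docks on a complex of RFX, CREB and NF-Y at the promoters. Macrophages, dendritic cells and B cells express the set constitutively, while endothelial and epithelial cells can be induced to it, above all by interferon gamma. Mice of the C57BL/6 strain carry a defective H2-Ea gene, so H2-Eb1 RNA is made without its usual alpha partner.

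The 16 cell labels used are those the authors deposited. Label M was checked against macrophage markers, all 14 of which were detected, with a summed level of 24533 to 38270 counts per 1000000 UMIs of the label (CPM) in the RW samples. Label EC1, the largest endothelial label, carried 9 of 9 endothelial markers at 16183 to 17544 CPM in RW, and label Th1 carried 6 of 6 thyrocyte markers at 89303 to 96532 CPM. The 9 samples held 583 to 1805 cells and 3013324 to 11880793 UMIs, with a median of 2098 to 4149 UMIs per cell, and 15 of 10171 cell barcodes occurred in more than 1 sample. The sample titles name no batch, and the 3 title series used below, A, B and C, were inferred here from the titles. RW 3 and aJ1aJ2 1 were placed in A, and the remaining RW and aJ1aJ2 samples in B. All aN1aN2 samples were placed in C, so this treatment and that series cannot be told apart. Whether the inferred series were separate batches was not tested.

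In GRCm38, H2-DMa (17: 34119693 to 34139101), H2-DMb1 (17: 34153191 to 34160229), H2-Ab1 (17: 34263227 to 34269418), H2-Aa (17: 34282744 to 34287823) and H2-Eb1 (17: 34305867 to 34316674) stand together in the MHC on chromosome 17, and Ciita lies on chromosome 16 (10480014 to 10531064). The 200 bases before the start site are shown for H2-Aa and H2-Eb1, which both fell in EC1 and, without its C1q cells described further on, in Th1, and for H2-DMb1, which did not pass the test in Th1 and was too rare to be tested in EC1. Sequences are from RefSeq on GRCm38.p6 and read 5′ to 3′ along the gene's strand. The capitals mark every CCAAT, on either strand (ATTGG on the opposite one), which is the core that NF-Y binds, and every ACNGATG, a stretch of letters found in the X box of class II promoters.
H2-DMb1: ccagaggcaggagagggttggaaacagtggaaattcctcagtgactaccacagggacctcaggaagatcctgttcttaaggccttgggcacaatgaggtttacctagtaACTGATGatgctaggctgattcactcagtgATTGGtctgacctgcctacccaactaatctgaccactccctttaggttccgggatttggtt
H2-Aa: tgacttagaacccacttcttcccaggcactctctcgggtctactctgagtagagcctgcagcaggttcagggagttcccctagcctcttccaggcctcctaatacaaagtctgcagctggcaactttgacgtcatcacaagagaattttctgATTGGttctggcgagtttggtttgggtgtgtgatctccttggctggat
H2-Eb1: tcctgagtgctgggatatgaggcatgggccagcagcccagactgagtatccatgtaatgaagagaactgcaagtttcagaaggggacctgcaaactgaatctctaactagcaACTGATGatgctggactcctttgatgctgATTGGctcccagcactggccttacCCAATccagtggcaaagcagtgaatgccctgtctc
The H2-DMb1 window is chr17:34152991-34153190 on the plus strand, the H2-Aa window chr17:34287824-34288023 on the minus strand and the H2-Eb1 window chr17:34305667-34305866 on the plus strand. H2-DMb1 held ACTGATG at -91 and ATTGG at -61 from its start, and H2-Eb1 held ACTGATG at -88 with 2 CCAAT cores downstream. H2-Aa held a single CCAAT core, at -48, and no ACNGATG. Both motifs stood together in 1.83% of the 32851 mouse promoters of the same length, a CCAAT core in 29.3% and ACNGATG in 6.52%, searched on both strands. Neither listed start of H2-DMa held ACNGATG. These matches describe letters only, and none was tested for binding.

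Class II RNA in the control thyroid sat mainly in the macrophage label, with far lower amounts in thyrocytes and endothelium. In the RW samples M held 68.1, 83.0 and 61.1% of the class II UMIs, and in the other 6 from 21.2% (aN1aN2 2) to 86.4% (aJ1aJ2 4). Of 116554 class II UMIs over all 9 samples, 75.4% were in M, 15.7% in Th1, 4.51% in EC1, 1.59% in the endothelial label EC3 and 1.11% in the lymphocyte label T1. Levels below are CPM, as the mean and SD over the 3 RW samples. Since a label's level is a sum over its cells, fewer cells of a type and less RNA per cell cannot be told apart in it.

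Cd74, the invariant chain, whose gene lies on chromosome 18 (60803849 to 60812652), reached 37790 ± 10910 CPM in M. It was next highest in Th1 (620 ± 143), Th3, a second and shallower thyroid label (580 ± 121), EC3 (529 ± 776), EC1 (418 ± 162) and T1 (402 ± 352), and lay at 14.9 ± 13.5 in the fibroblast label F and 4.17 ± 1.36 in the erythroid label Eryth2. Only M stood above its neighbour in this order by more than their SDs, while Th1, Th3, EC3, EC1 and T1 overlapped. The small thyroid label Th2, with 16, 10 and 13 cells in the RW samples, is outside this order and had 169, 449 and 2122 CPM. The alpha chain H2-Aa reached 11725 ± 2786 in M against 129 ± 39.4 in EC1 and 72.2 ± 16.6 in Th1. Its beta partner H2-Ab1 reached 11980 ± 974, 130 ± 18.5 and 69.5 ± 15.4 in the same labels, and H2-Eb1 13766 ± 2533, 142.9 ± 44.2 and 70.3 ± 17.9. The chains were thus higher in EC1 than in Th1 while Cd74 was not.

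The loading chains were rarer everywhere. H2-DMa had 790.1 ± 85.8 CPM in M, 10.5 ± 6.62 in EC1 and 10.4 ± 0.594 in Th1. H2-DMb1 had 767 ± 108 in M, 7.38 ± 1.38 in EC1, 28.3 ± 0.851 in Th1 and 23.8 ± 9.36 in Th3. Of the labels other than M, Th1 and Th3 thus had the highest mean H2-DMb1 levels, overlapping EC3 within the SDs. Ciita, the transactivator, had 36.3 ± 21.97 in M. In EC1 it was a single UMI in each of the 3 RW samples and none in the other 6.

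**Figure D1:**
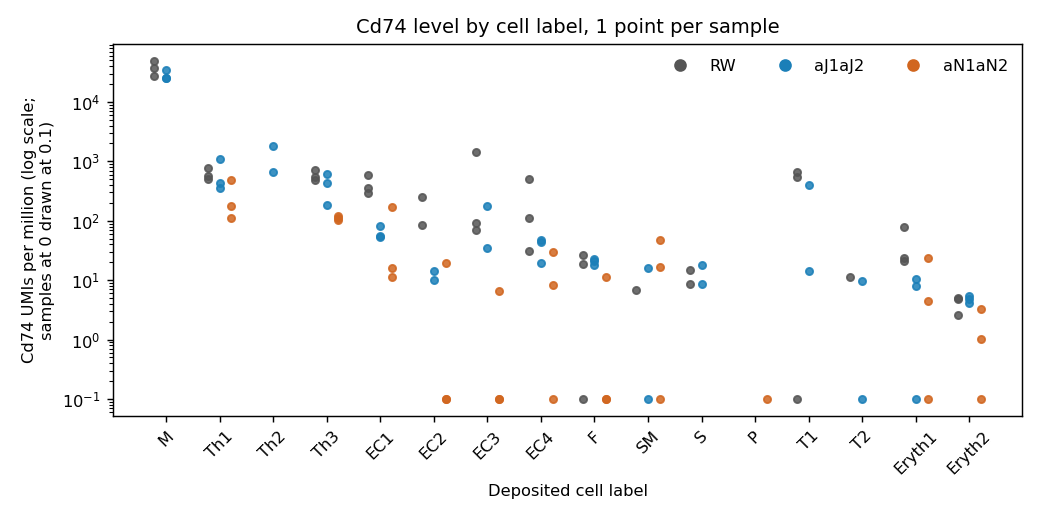
Level of Cd74 in each cell label, as CPM (counts per 1000000 UMIs of the label) on a log axis, with 1 point for each sample that has 20 or more cells of the label and samples at 0 drawn at 0.1. M lies far above all other labels, and the thyrocyte and endothelial labels overlap in RW.

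The genes whose RW levels over the 16 labels were most like the mean log level of the class II genes are given as a description. Among 14680 genes, ranked by Pearson's r of log levels over the 16 labels, the first 10 were Irf8 (r = 0.900), C1qb (0.887), Ly86 (0.871), Rnf180 (0.866), Tyrobp (0.855), C1qc (0.850), Ctss (0.847), Wfdc17 (0.843), Cx3cr1 (0.839) and Aif1 (0.836). C1qb, C1qc, Tyrobp, Cx3cr1 and Aif1 are well-known macrophage genes. The 16 points share libraries, and the height of M weighs heavily in them.

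In macrophages themselves the ligand-blocking antibodies left no class II gene past the test. Levels are from here on CPM after TMM scaling, the normalization of the edgeR quasi-likelihood fit. Cd74 was 38994, 25823 and 51445 in the 3 RW samples and 32725, 25358 and 25349 in the 3 aJ1aJ2 samples, which overlap. H2-Ab1 was 12961, 10290 and 13380 in RW and 9831, 9026 and 8820 in aJ1aJ2, which do not overlap. H2-DMb1 was 751, 660 and 934 against 662, 906 and 664, with overlap.

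The log2 changes in M, aJ1aJ2 against RW, were -0.48 (SE 0.28) for Cd74, -0.52 for H2-Aa, -0.40 for H2-Ab1, -0.42 for H2-Eb1, -0.22 for H2-DMa and -0.06 for H2-DMb1. Each adjusted p was 1 (edgeR), and unadjusted p-values ran from 0.057 to 0.79. None of the 6 tested genes passed with edgeR or DESeq2, as none of the 2097 genes tested in M did (0%). Ciita, with 3, 21 and 4 UMIs in RW and 4, 17 and 4 in aJ1aJ2, was too rare to be tested.

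The share of all cells that carried label M was 4.25, 5.85 and 5.52% in RW and 6.17, 3.99 and 3.84% in aJ1aJ2. It was 0.860, 0.339 and 1.46% in aN1aN2, below every sample of the other groups. The exact two-sided permutation p was 0.1 for aN1aN2 against either group, the smallest that 3 against 3 samples allow, and 0.7 for aJ1aJ2 against RW. With 9, 3 and 10 M cells in the aN1aN2 samples, holding 687, 73 and 1899 Cd74 UMIs, class II levels per macrophage could not be fitted in that group.

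Label M was not uniform. Its 298 cells with 3 or more UMIs of C1qa, C1qb and C1qc, the chains of complement C1q that resident macrophages make, held 72.9% of the label's class II UMIs. Its 57 cells with no C1q UMI held 26.5%, with Cd74 at 23477 CPM against 34451 in the C1q cells. Dendritic cell markers summed to 1462 CPM in the cells without C1q and 222 in those with it.

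In EC1, the 4 abundant class II genes fell under both antibody pairs when all cells with the label were summed. Cd74 was 366, 297 and 607 in RW, 53.2, 82.7 and 56.5 in aJ1aJ2 and 11.3, 167 and 15.7 in aN1aN2. H2-Ab1 was 129, 115 and 151 in RW, 16.1, 25.9 and 37.2 in aJ1aJ2 and 31.7, 18.6 and 6.29 in aN1aN2. Every RW sample lay above every treated sample for both genes, while the aJ1aJ2 and aN1aN2 samples overlapped, with aN1aN2 2 the highest treated sample for Cd74.

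H2-Aa was 100.5, 116 and 176 in RW, 14.5, 24.0 and 23.9 in aJ1aJ2 and 4.52, 31.8 and 0 in aN1aN2. H2-Eb1 was 114, 125 and 196 in RW, 21.0, 32.8 and 34.6 in aJ1aJ2 and 4.52, 47.7 and 3.15 in aN1aN2. Both antigen-binding chains showed the order of Cd74, with no overlap between RW and either treated group. The loading chains had 51 H2-DMa and 37 H2-DMb1 UMIs over the 3 RW samples, too few to pass the filter on low counts.

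In the edgeR fit, aJ1aJ2 against RW gave log2 changes of -2.69 for Cd74 (SE 0.38, adjusted p 0.000627), -2.58 for H2-Aa (8.69e-05), -2.22 for H2-Ab1 (3.25e-05) and -2.23 for H2-Eb1 (0.000372). All 4 tested genes were lower, with a median of -2.41 against 0.01 over the 9369 genes tested, of which 0.886% were lower. For Cd74 and H2-Eb1 the call was lost with DESeq2 in place of edgeR (adjusted p 0.0958 and 0.0992). The aN1aN2 group against RW gave -2.72 for Cd74 (0.000144), -3.42 for H2-Aa (8.70e-06), -2.71 for H2-Ab1 (1.93e-06) and -2.98 for H2-Eb1 (2.93e-05), again 4 of 4 lower, with a median of -2.85 against -0.01 over all genes, of which 8.93% were lower. Without aN1aN2 2 the Cd74 change in that contrast was -5.01. Between aN1aN2 and aJ1aJ2, 0 of 4 passed with edgeR or DESeq2, where 13.6% of genes did in either direction. None of the 4 had an unadjusted p under 0.05, where 25.4% of genes did. Without aN1aN2 2, 3 of the 4 passed in this contrast.

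**Figure D2:**
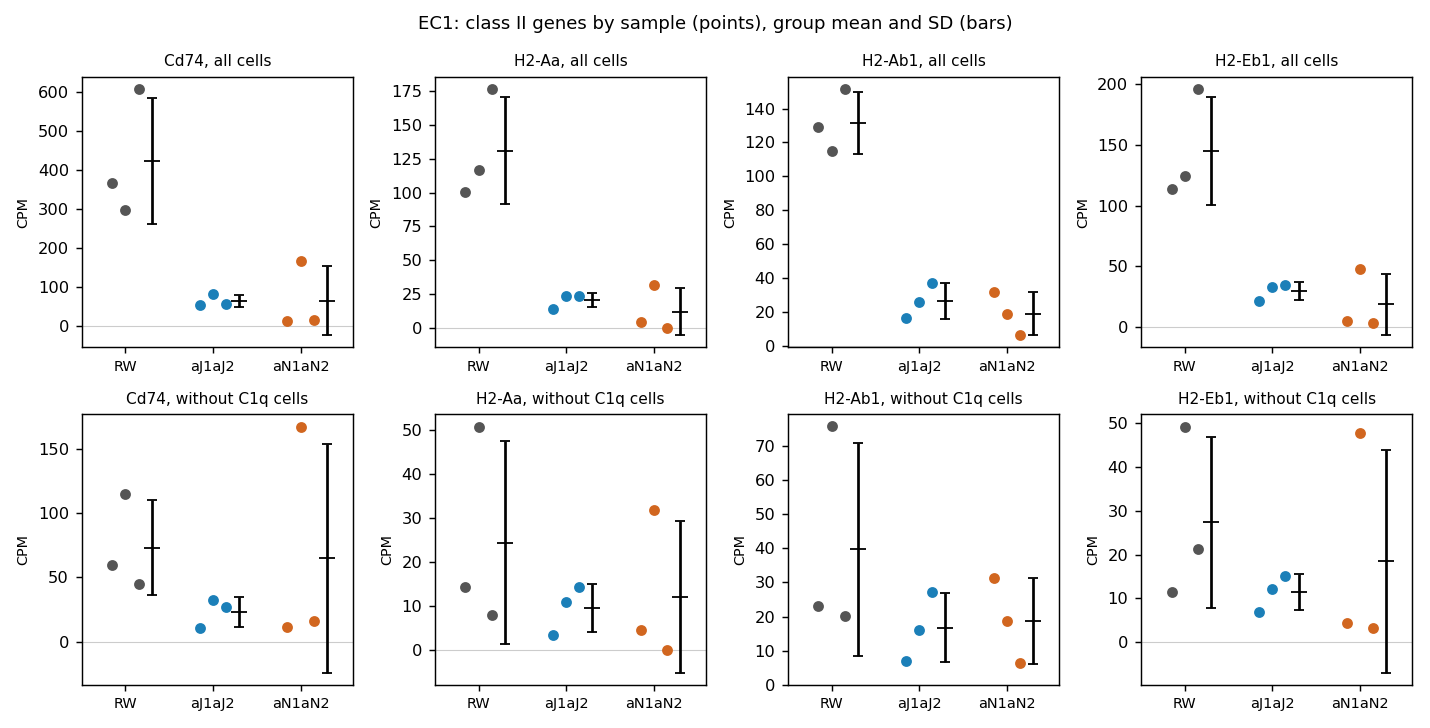
Cd74, H2-Aa, H2-Ab1 and H2-Eb1 in EC1 as TMM CPM, all cells and without cells that hold 3 or more C1q UMIs, with 1 point per sample and bars for the mean and SD of the 3 samples of a group. With all cells the RW samples lie above every treated sample, and without the C1q cells the RW and aJ1aJ2 levels are lower, and the groups overlap for the chains.

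Most class II RNA of EC1 came from few cells that also held macrophage transcripts. Cells with 3 or more C1q UMIs numbered 7, 5 and 11 in the RW samples, 1, 4 and 4 in aJ1aJ2 and 0 in each aN1aN2 sample. They were 3.48% of 661 RW cells, 1.33% of 678 aJ1aJ2 cells and 0 of 264 aN1aN2 cells, which allows a share of up to 1.14%. These cells held 83.6% of the class II UMIs of EC1 in RW (3800 of 4547), 53.7% in aJ1aJ2 (309 of 575) and none of the 133 in aN1aN2. Over the whole label, 6 of 1603 cells held 50% of its class II UMIs. The limit of 3 C1q UMIs was not adjusted for depth. The median EC1 cell had 2518, 3533.5 and 2671 UMIs in the aN1aN2 samples, against 4679 to 4968 in RW.

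The C1q cells of EC1 were deep: their median was 18095 UMIs in RW, against 4760 in the other RW cells, and 7730 against 3536 in aJ1aJ2. All 32 also carried endothelial transcripts, with a median of 188 UMIs over 9 endothelial markers and a minimum of 36, against a median of 63 in the other 1571 cells. In RW 1, a single cell of 16348 UMIs held 638 class II UMIs, 58.1% of its sample's, beside 110 C1q and 153 endothelial marker UMIs. In aN1aN2 2, a single cell held 96 class II UMIs, 95.0% of its sample's, with 0 C1q UMIs, 22 UMIs of B cell markers and 275 of endothelial markers. The one high aN1aN2 sample thus rested on 1 cell.

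**Figure D3:**
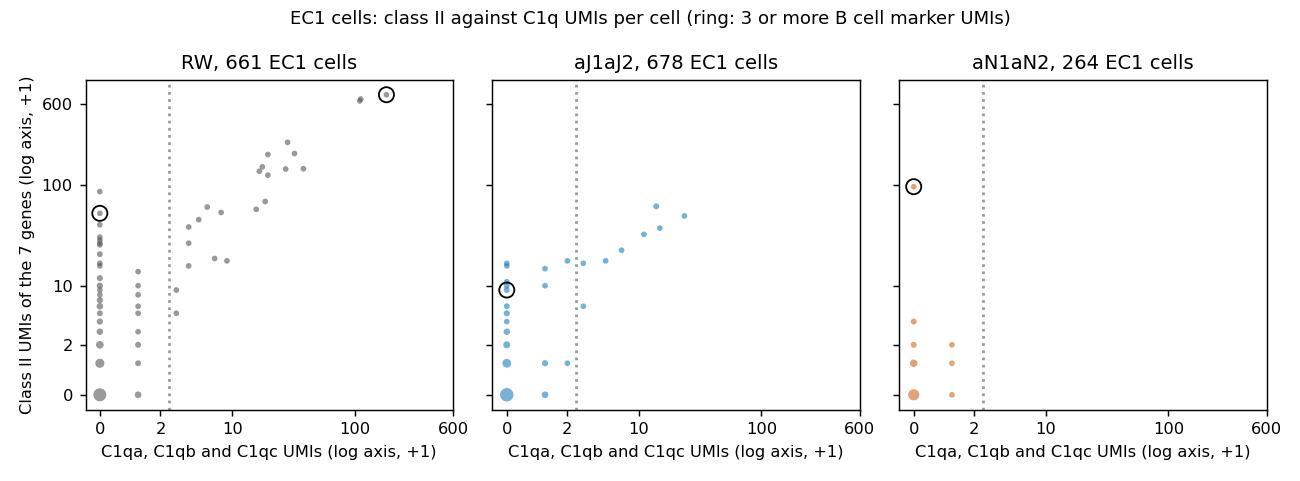
Class II UMIs of each EC1 cell against its UMIs of C1qa, C1qb and C1qc, on log axes, by group. The dotted line marks 3 C1q UMIs, and rings mark cells with 3 or more UMIs of B cell markers; larger points stand for more cells at one place. The cells richest in class II UMIs in RW and aJ1aJ2 lie right of the line, and the one in aN1aN2 lies left of it with a ring.

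The summed level of the 14 macrophage markers in EC1 moved with the class II genes. It was 163 to 396 CPM in the RW samples, 60.9 to 136 in aJ1aJ2 and 45.7 to 60.1 in aN1aN2, where 8 of the 14 markers were at 0. Of 8 markers tested, 7 fell in aJ1aJ2 and 5 in aN1aN2, where 0.886 and 8.93% of all genes did. C1qa changed by -2.09, C1qb by -1.85 and C1qc by -2.68 on the log2 scale in aJ1aJ2, and by -5.69, -5.63 and -5.07 in aN1aN2. Ctss, the macrophage cathepsin, changed by -2.47 in aJ1aJ2 and -5.31 in aN1aN2.

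With the C1q cells left out, the levels in EC1 were lower in the RW and aJ1aJ2 samples, aN1aN2 had no such cells to lose, and no class II gene passed the test. Cd74 was 59.7, 115 and 44.5 in RW, 10.4, 32.7 and 26.6 in aJ1aJ2 and 11.2, 167 and 15.8 in aN1aN2. The RW samples still lay above the aJ1aJ2 samples, and aN1aN2 2 lay above all. H2-Ab1 was 23.0, 75.7 and 20.3 in RW, 6.95, 16.01 and 27.3 in aJ1aJ2 and 31.4, 18.6 and 6.32 in aN1aN2, which overlap.

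The log2 change of Cd74 between aJ1aJ2 and RW was then -1.45 (SE 0.49, edgeR adjusted p 0.178), that of H2-Aa -1.05 (0.503), of H2-Ab1 -1.002 (0.329) and of H2-Eb1 -1.09 (0.360). This made 0 of 4 with edgeR, as with DESeq2, where 1.14% of 9261 genes passed in either direction. An unadjusted p under 0.05 was found for 3 of 4, and for 12.3% of all genes. With the title series as a block Cd74 passed (-1.61, adjusted p 0.00799), and in series B alone 3 of 4 passed. For aN1aN2 against RW, Cd74 changed by -0.14 (adjusted p 0.891), and 0 of 4 passed with either tool, where 17.8% of genes did. None of the 4 had an unadjusted p under 0.05, where 29.6% of genes did. Against aJ1aJ2, 0 of 4 passed in aN1aN2, where 13.4% of genes did. The macrophage markers that remained summed to 36.4 to 44.2 CPM in RW and 26.5 to 87.6 in aJ1aJ2. A p above the threshold does not show that the groups were equal.

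The receptor contrast differed in an alternative chosen after the data were seen, in which cells with 3 or more B cell marker UMIs, and cells with under 3 endothelial marker UMIs, were left out together with the C1q cells. Every EC1 cell had at least 8 endothelial marker UMIs, so the last condition removed none. Cd74 in aN1aN2 against RW then changed by -2.38 (edgeR adjusted p 0.00677), H2-Aa by -3.53 (0.0350) and H2-Eb1 by -2.82 (0.0123), while H2-Ab1 changed by -1.28 (0.210). For aJ1aJ2 against RW the Cd74 change was -1.33 (0.0833), and no chain passed. The summed B cell markers of EC1 reached 66.7 CPM in aN1aN2 2, 25.7 at most in RW and 4.07 at most in aJ1aJ2 without the C1q cells.

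The fall in EC1 was larger than the change in macrophages under ligand blockade. In 1 edgeR model over the EC1 and M sums of the 6 RW and aJ1aJ2 samples, the EC1 change minus the M change was -2.18 for Cd74 (SE 0.23, adjusted p 2.48e-05), -1.998 for H2-Aa (0.000803), -1.82 for H2-Ab1 (0.00144) and -1.78 for H2-Eb1 (0.00158). These were 4 of the 10 genes that passed among 7277 (0.137%). H2-DMa (-1.56) and H2-DMb1 (-1.47) did not pass. With the C1q cells left out of EC1, no member passed, and Cd74 gave -0.95 (adjusted p 1).

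Whether EC1 held more Cd74 than its C1q content would carry over from macrophages was asked with the ratio of Cd74 to C1q UMIs, in EC1 over M, within each sample. The log2 of this ratio of ratios averaged 0.94 ± 2.55 (SD, n = 9), above 0 in 5 of 9 samples, with an exact sign-flip permutation p of 0.391. Leaving out 1 sample gave 0.18 to 1.19, the lowest without aN1aN2 2. With all 14 macrophage markers in place of C1q it averaged -0.16 (exact permutation p 0.758). With the C1q cells left out it averaged 2.29 (exact permutation p 0.0117), a comparison in which the denominator was lowered by the choice of cells. In the 6 RW and aJ1aJ2 samples the value ran from -0.96 to 0.56, on both sides of 0. In aN1aN2 it was 2.80, 7.05 and -0.99, where EC1 held 0, 0 and 3 C1q UMIs, so that the pseudocount sets the first 2.

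The share of EC1 cells with a Cd74 UMI was compared at an equal depth of 500 UMIs per cell. It was 3.05, 6.38 and 4.78% in RW, 0.633, 2.65 and 1.70% in aJ1aJ2 and 0.257, 1.23 and 1.13% in aN1aN2. The differences of the means from RW were -3.07 percentage points for aJ1aJ2 and -3.86 for aN1aN2, each with no overlap and an exact permutation p of 0.1, the smallest possible. Without thinning the shares were 9.42, 24.2 and 14.6% in RW, 5.62, 9.32 and 6.77% in aJ1aJ2 and 3.42, 5.56 and 5.33% in aN1aN2.

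Labels that should lack class II gave the background. In RW, 0, 0.937 and 1.07% of F cells and 0.0924, 0.209 and 0.251% of Eryth2 cells had a Cd74 UMI at the same depth, with median depths of 5561 to 10026 UMIs in F, 9031 to 11432 in Eryth2 and 4679 to 4968 in EC1. With the C1q cells left out, the EC1 shares were 1.49, 4.50 and 1.78% in RW and 0.325, 1.54 and 1.09% in aJ1aJ2. The F shares were 0.758, 1.27 and 0.887% in aJ1aJ2 and 0.287, 0 and 0% in aN1aN2, at median depths of 5232 to 7910 and 2295 to 3864 UMIs. Within each group, the EC1 shares of RW stood above both background labels, while those of aJ1aJ2 and aN1aN2 overlapped the shares of F. In RW 1, aN1aN2 2 and aN1aN2 3, F had no Cd74 UMI at full depth either, in 43, 41 and 33 cells, which allows unthinned shares of up to 6.98, 7.32 and 9.09% for counting error alone.

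Thyrocytes held Cd74 in a different proportion to the chains. Macrophages had 0.972, 0.879 and 1.13 Cd74 UMIs per UMI of H2-Aa, H2-Ab1 and H2-Eb1 in RW, and EC1 had 1.07, 0.836 and 1.16. Th1 had 2.66, 3.16 and 3.00, and with its own C1q cells left out 8.38, 8.35 and 11.3. The same ratio in those Th1 cells was 10.9, 12.7 and 10.95 in aJ1aJ2 and 21.3 and 16.5 in aN1aN2 1 and 2. In aN1aN2 3 those cells had 106 Cd74 and 6 chain UMIs, too few for a ratio. These are ratios of UMIs, not of RNA per length. The RW samples of EC1 and M overlapped in this ratio, and every RW sample of Th1 lay above both.

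**Figure D4:**
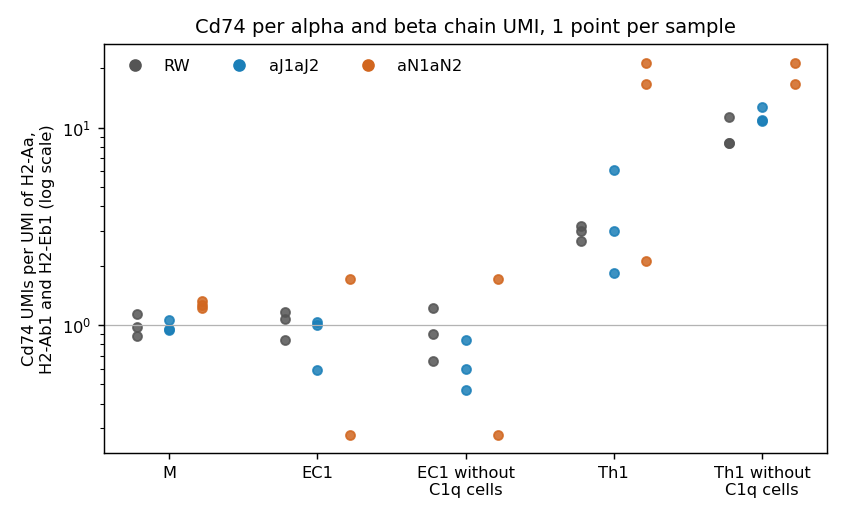
Cd74 UMIs per UMI of H2-Aa, H2-Ab1 and H2-Eb1 in M, EC1 and Th1, the last 2 also without their C1q cells, with 1 point per sample on a log axis. M and EC1 lie near 1 in RW, and Th1 lies higher, most of all without its C1q cells; samples with under 10 UMIs of the chains have no point.

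Relative to C1q, the Cd74 of Th1 exceeded that of macrophages in 9 of 9 samples, with a mean log2 ratio of ratios of 3.02 ± 2.57 (SD). The exact sign-flip permutation p was 0.00391, the smallest possible with 9 samples. The values ran from 0.93 to 8.57, and those of the aN1aN2 samples rested on 9, 3 and 10 M cells. The C1q cells of Th1 were 35 of 425 in RW, 25 of 396 in aJ1aJ2 and 2 of 348 in aN1aN2, and held 52.9, 61.2 and 41.2% of the label's class II UMIs. In aJ1aJ2 1 they held 77.0%, and in aN1aN2 3 they held 81.0%. The results for Th1 are therefore given with and without them, the second set chosen after the data were seen.

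Over all Th1 cells, Cd74 was 566, 509 and 790 in RW, 1130, 428 and 345 in aJ1aJ2 and 174, 109 and 503 in aN1aN2. The aN1aN2 samples lay below the RW samples, and aJ1aJ2 overlapped them. Of 6 genes tested for aN1aN2 against RW, Cd74 (log2 change -1.31, edgeR adjusted p 0.0403), H2-Ab1 (-2.17, 0.0466) and H2-DMa (-2.45, 0.00257) fell, where 17.3% of all genes did. For aJ1aJ2 against RW 0 of 6 passed, where 0.612% of genes did in either direction, and 1 of 6 had an unadjusted p under 0.05, where 12.3% of genes did. Against aJ1aJ2, H2-DMa alone was lower in aN1aN2 (-2.11, 0.0151), 1 of 6, where 11.5% of genes were. The 14 macrophage markers summed to 82.0 to 203 CPM in RW, 33.0 to 416 in aJ1aJ2 and 4.31 to 135 in aN1aN2. The Cd74 call was lost in 6 of 13 alternatives and the H2-Ab1 call in 7.

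With the C1q cells left out, the fall of class II RNA in Th1 under receptor blockade was clearer. The RW levels of H2-Aa and H2-Eb1 were then close to those of fibroblasts. Cd74 was 348, 450 and 519 in RW, 432, 278 and 277 in aJ1aJ2 and 174, 111 and 134 in aN1aN2. H2-Ab1 was 18.5, 20.4 and 22.2 in RW, 19.3, 9.97 and 10.3 in aJ1aJ2 and 2.72, 4.26 and 1.27 in aN1aN2. Every aN1aN2 sample lay below every sample of the other groups for both genes.

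H2-Eb1 was 11.1, 14.6 and 11.8 in RW, 7.70, 6.98 and 9.65 in aJ1aJ2 and 2.18, 0.608 and 2.53 in aN1aN2. H2-DMa was 8.85, 10.2 and 6.81 in RW, 6.42, 4.48 and 4.22 in aJ1aJ2 and 1.63, 0.608 and 2.53 in aN1aN2. Both again put aN1aN2 lowest without overlap. H2-DMb1, the partner of H2-DMa, was 27.4, 28.4 and 25.7 in RW, 16.7, 15.5 and 13.3 in aJ1aJ2 and 20.7, 22.5 and 7.59 in aN1aN2, so that here the aJ1aJ2 and aN1aN2 samples overlapped below RW.

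For aN1aN2 against RW the log2 changes were -1.64 for Cd74 (SE 0.20, edgeR adjusted p 2.45e-05), -2.23 for H2-Aa (0.00171), -2.73 for H2-Ab1 (5.53e-05), -2.84 for H2-Eb1 (0.000123) and -2.51 for H2-DMa (0.00103), while H2-DMb1 gave -0.54 (0.0899). This is 5 of 6 lower, with a median of -2.37 over the 6 against 0.04 over all genes tested, of which 16.9% were lower. Against aJ1aJ2, 4 of 6 were lower in aN1aN2, where 10.1% of genes were, with Cd74 at -1.22 (0.000650) and H2-Ab1 at -2.03 (0.00249). The H2-DMa call in that contrast (-1.76, 0.0302) was lost in 5 of 11 alternatives: with DESeq2 (0.0962) and without aJ1aJ2 1, aJ1aJ2 3, aN1aN2 1 or aN1aN2 2, with the highest adjusted p of 0.154 in the last. For aJ1aJ2 against RW 0 of 6 passed with edgeR or DESeq2 (Cd74 -0.42, adjusted p 0.331), where 0.869% of genes did, while all 6 changes were negative with an unadjusted p under 0.05, where 14.0% of genes had one. Without aJ1aJ2 1, 4 of 6 passed. The 5 calls against RW held in 13 of 13 alternatives each.

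The counts behind these levels differ widely. Cd74 had 1257, 618 and 2288 UMIs in RW and 320, 182 and 106 in aN1aN2, but H2-Ab1 had 67, 28 and 98 against 5, 7 and 1. The median depth of the Th1 cells was 16265 UMIs in RW, 12370 in aJ1aJ2 and 6479.5 in aN1aN2. The 14 macrophage markers that remained in these cells summed to 7.79 to 11.4 CPM in RW, 7.32 to 9.59 in aJ1aJ2 and 4.31 to 9.31 in aN1aN2, which overlap, and their part in the result was not tested. In fibroblasts, the Cd74 level was 14.9 CPM in RW, 20.7 in aJ1aJ2 and 3.76 in aN1aN2. H2-Aa was 11.1 ± 9.30 and H2-Eb1 10.8 ± 10.9 there in RW (SD), and both were 0 in aN1aN2. Per total UMIs as well, Th1 without C1q cells had 14.1 ± 4.01 and 12.4 ± 1.77 in RW, which overlap the fibroblast levels. For H2-Ab1 the RW levels were 20.2 ± 1.58 in those Th1 cells and 2.31 ± 4.00 in fibroblasts. Without its C1q cells, Th1 had H2-Aa at 11.9, 18.9 and 11.8 CPM in RW, 12.8, 4.98 and 5.43 in aJ1aJ2 and 3.27, 1.83 and 3.80 in aN1aN2.

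**Figure D5:**
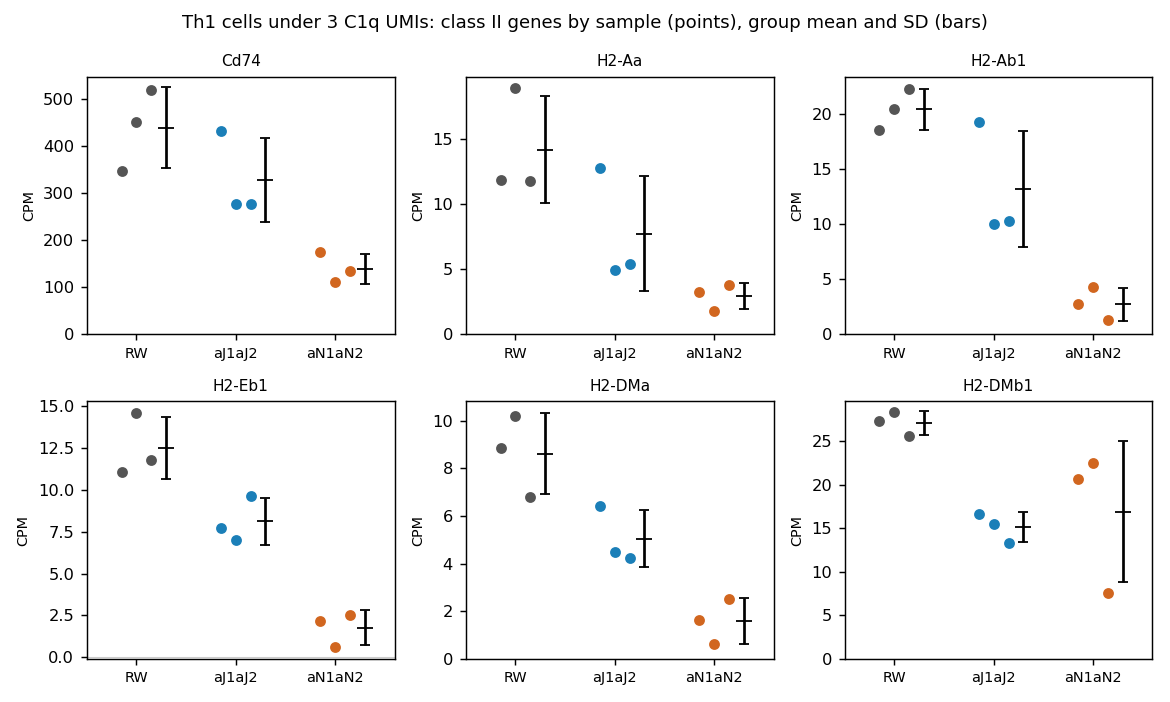
Class II genes in Th1 without cells that hold 3 or more C1q UMIs, as TMM CPM, with 1 point per sample and bars for the mean and SD of the 3 samples of a group. The aN1aN2 samples lie lowest for Cd74, the chains and H2-DMa, and overlap aJ1aJ2 for H2-DMb1.

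In the shallower thyroid label Th3, Cd74 was 442, 582 and 644 in RW, 184, 605 and 439 in aJ1aJ2 and 120, 132 and 103 in aN1aN2. The aN1aN2 samples were again lowest, with a log2 change of -2.21 against RW (edgeR adjusted p 0.0196), where 2.54% of genes tested were lower. Its call was lost in 5 of 13 alternatives. The aJ1aJ2 change was -0.44 (adjusted p 0.998), where 0% of genes passed.

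In the endothelial labels EC2 and EC3 a single cell held most of the class II UMIs. In EC2, Cd74 fell in aJ1aJ2 (-3.86, edgeR adjusted p 0.00451, where 0.837% of genes were lower) and in aN1aN2 (-5.21, adjusted p 0.00177, where 6.62% were), from 260 and 84.4 in the 2 RW samples with enough cells. The aJ1aJ2 call was not made without RW 1 or with a minimum of 10 cells, where Cd74 was too rare to be tested, and with DESeq2 its adjusted p was not given. A single RW 1 cell with 20 B cell marker UMIs held 89 of the label's 129 class II UMIs. In EC3, Cd74 was 68.3, 1428 and 90.0 in RW, and its change in aN1aN2 was -7.66 (adjusted p 0.0259), where 2.44% of genes were lower. That call was lost without any 1 of the 3 aN1aN2 samples (adjusted p 0.0856 to 0.124), DESeq2 gave no p for it, and without RW 2 the change was -4.88 (0.0202). In aJ1aJ2 0 of 4 members passed there, where 0.0618% of genes did. One RW 2 cell of 120349 UMIs, with 1 endothelial marker UMI, held 1476 class II UMIs, 79.8% of all in EC3. In T1, 0 of 4 members passed in aJ1aJ2 against RW, as 0% of all genes did. The aN1aN2 samples had too few T1 cells to be fitted.

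In the fourth endothelial label, EC4, the class II UMIs were few but spread over more cells: 68 of 1046 cells had one, and the highest cell held 11.3% of the 213. No member passed the filter on low counts there, so none was tested. H2-Aa, H2-Ab1 and H2-Eb1 together had 38, 9 and 14 UMIs in RW, 0, 7 and 21 in aJ1aJ2 and 5, 4 and 1 in aN1aN2. Per total UMIs of the label this was 273, 111 and 109 CPM in RW, 0, 36.9 and 102 in aJ1aJ2 and 24.8, 26.3 and 8.28 in aN1aN2. The RW samples lay above the others, the lowest RW and the highest aJ1aJ2 sample being close. Cd74 was 502, 111 and 31.2 in RW on the same scale, which overlapped 19.3, 47.5 and 43.9 in aJ1aJ2 and lay above 29.8, 0 and 8.28 in aN1aN2, by little for RW 3.

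Of 11 genes for antigen processing and loading, 5 were tested in EC1: Ctss fell in aJ1aJ2 (-2.47, edgeR adjusted p 0.000853) and in aN1aN2 (-5.31), and Ctsl, cathepsin L, rose in aN1aN2 (0.92, 4.25e-06). In EC1, 1.42% of all genes passed in either direction in aJ1aJ2 and 17.8% in aN1aN2. The median over the 5 was -0.15 in aJ1aJ2 and 0.40 in aN1aN2, against 0.01 and -0.01 over all genes. Once the C1q cells were left out, Ctss was too rare to be tested. In M, 6 were tested and none passed in aJ1aJ2. In Th1, 5 were tested, with a median of 0.09 in aN1aN2 against 0.02 over all genes. Ctsl rose there in aN1aN2 (0.27, edgeR adjusted p 0.0317) while the others did not pass, and the share of all Th1 genes that rose is not given here. Without the C1q cells 0 of 4 passed. Of the 7 genes of the RFX, CREB and NF-Y complex, all were tested in EC1, where none passed in aJ1aJ2 and Nfya fell in aN1aN2 (-1.26, 0.0376); none passed in Th1.

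Among the genes of interferon gamma input, Ifngr2, a chain of the receptor, fell in EC1 in aJ1aJ2 from 110.5 ± 16.4 to 58.4 ± 21.5 CPM (SD, n = 3; log2 change -1.01, edgeR adjusted p 0.0197). In aN1aN2, Ifngr2 changed by -0.76 (edgeR adjusted p 0.0481) and the feedback inhibitor Socs1 by -1.55 (0.0104), both lower than in RW. Both genes also passed in aN1aN2, and Ifngr2 in aJ1aJ2, without the C1q cells. All 7 genes of this list were tested in EC1. Their median was -0.34 in aJ1aJ2 and -0.43 in aN1aN2, against 0.01 and -0.01 over all genes. Of all genes, 0.886% were lower in aJ1aJ2 and 8.93% in aN1aN2. In Th1 all 7 were tested and 2 fell in aN1aN2, where 17.3% of all genes were lower: Ifngr2 (-0.74, 0.00140) and Socs1 (-1.74, 0.0428), named there after their values were seen. The median over the 7 was -0.10, and 0.08 without the C1q cells, against 0.02 and 0.04 over all genes. Of 5 costimulation genes, 1 was tested in EC1 and did not pass, and Cd40, the 1 tested in Th1 and also named after its values were seen, fell there in aN1aN2 (-1.69, 0.000750), where 17.3% of all genes were lower.

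Over the 9 EC1 samples, the genes whose log level followed the mean of Cd74, H2-Aa, H2-Ab1 and H2-Eb1 most closely, among 9365, were Ewsr1 (r = 0.970), Cd52 (0.960), Mfsd5 (0.947), Pgk1 (0.943), Spcs2 (0.942), Ctss (0.938), Rmdn3 (0.934), Rpia (0.932), Nip7 (0.930) and Slc46a3 (0.927). The 9 points share their groups, and a group difference alone gives such values.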

How the data were processed

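Per the submitters' processing notes, reads were processed with Cell Ranger on GRCm38; the version is not given in the sources used here. The authors deposited raw UMI counts for each gene and cell, as 1 matrix of 9 samples, with an annotation of cells (sample and cell label); 2619 annotation lines with shifted fields were read by their content. Of the 52636 gene identifiers, 52403 matched a symbol, and the 233 unmatched held 0.0293% of UMIs. No cell was removed for quality, and doublets were not called.

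Counts were summed per sample and label where a sample had 20 or more cells. The sums were tested with edgeR 4.0.16 (quasi-likelihood test, TMM, filterByExpr; R 4.3.3) over all groups, with Benjamini-Hochberg adjustment over all genes tested in a label and a threshold of 0.05. DESeq2 1.42.0 was an alternative. A C1q cell has 3 or more UMIs of C1qa, C1qb and C1qc together. Shares were thinned to 500 UMIs per cell by their exact expectation, and ratios used a pseudocount of 0.5 (Python 3.11.15). The planned model of EC1 and M changes over 9 samples was fitted on the 6 RW and aJ1aJ2 samples, since M in aN1aN2 had fewer than 20 cells in each sample. The ratio to C1q used Cd74 alone.

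Replicates of a group differed beyond sampling noise (chi-square per degree of freedom 9.25 to 105). Where nothing says otherwise, p-values measure the spread between pools of mice. Limits for counts of 0 (3 counts) cover counting error only. On simulated EC1 counts of 9323 genes, 98% of 4-fold increases, 70% of 4-fold decreases and 8% of 2-fold changes were recovered, with 5.15% false calls. All genes were simulated with the same dispersion. The rates may not hold for the class II genes, whose EC1 counts rested on few cells.

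The members and lists were chosen with earlier results of these data known. Named genes are the 7 members, the genes of 4 lists (11 of loading and processing, 7 of the transcription complex, 7 of interferon gamma input and 5 of costimulation) past the threshold in EC1, M or F, and the 10 genes most like the mean of the members over labels and over EC1 samples. A result for 1 list gene past the threshold is not reported here.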

Additional observations from a re-analysis of the deposited data

Results flagged for a closer look

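The change of 4 class II genes under ligand blockade differed between EC1 and M by the interaction test of the edgeR model over 6 samples. The EC1 change minus the M change was -2.18 for Cd74, -1.998 for H2-Aa, -1.82 for H2-Ab1 and -1.78 for H2-Eb1 on the log2 scale. With the cells that hold 3 or more C1q UMIs left out of EC1, none of the 4 passed.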

How the results depend on the processing

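The 4 EC1 calls of aJ1aJ2 against RW became 2 with DESeq2 and stayed at 4 in the 13 other alternatives; those of aN1aN2 against RW stayed at 4 in 13 of 13, and the count of 0 in M stayed at 0 in 14 of 14. Without the C1q cells, the count of 0 in EC1 for aJ1aJ2 against RW became 4 with no filter on low counts, 1 with the title series as a block, 3 in series B alone and 1 with cells of 3 or more macrophage or B cell marker UMIs left out, and H2-Aa changed by -1.53 to 0.01 on leaving out 1 sample (0.011 without RW 2). For aN1aN2 against RW it became 1 with no filter, 3 without macrophage or B cell marker cells, 3 with endothelial markers also required, and 0 to 1 on leaving out 1 sample (1 without aN1aN2 2). For aN1aN2 against aJ1aJ2 it became 1 with no filter and 0 to 1 on leaving out 1 sample, and with all EC1 cells 0 to 3 (3 without aN1aN2 2). In Th1 without C1q cells, the count of 0 for aJ1aJ2 against RW became 2 with no filter, 4 in series B alone and 0 to 4 on leaving out 1 sample (4 without aJ1aJ2 1). Over the other labels, the 1 call of aJ1aJ2 against RW became 10 with no filter, 0 with DESeq2, 0 with a minimum of 10 cells, 0 with the series block, 6 in series B alone and 0 to 2 on leaving out 1 sample (0 without RW 1); that call, Cd74 in EC2, had no adjusted p with DESeq2 and could not be fitted with the block. The 6 calls of aN1aN2 against RW became 16 with no filter, 3 with DESeq2 and 3 to 7 on leaving out 1 sample. The 1 call of aN1aN2 against aJ1aJ2 became 9 with no filter, 2 with library totals, 2 with DESeq2, 0 with the compared groups only, 4 without C1q cells and 0 to 5 on leaving out 1 sample. The 4 differences between EC1 and M became 0 without C1q cells. The Cd74 to C1q ratio of 0.94 became -0.16 with all 14 macrophage markers and 2.29 without C1q cells. With the main settings, leaving out 1 sample gave 0.18 to 1.19 for it. The cause of each of these shifts was not tested.

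Replicate numbers 1 and 2 are shared by RW and aN1aN2, but same-numbered samples did not deviate together (r = -0.002 and 0.018 over 9369 genes). With the replicate number as a block, the counts for aN1aN2 against RW were 4 in EC1, 0 in EC1 without C1q cells, 5 in Th1 without C1q cells and 8 over the other labels. The loading chains and Ciita in EC1 were limited by depth, and M in aN1aN2 by its number of cells.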

Other observations

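In T1, the lymphocyte label, 24 cells with 3 or more B cell marker UMIs held 89.0% of the class II UMIs, with Cd74 at 3247 CPM against 41.6 in the other cells. In fibroblasts, 3 genes of loading and processing, 4 of interferon gamma input and 2 of the transcription complex were tested. In aN1aN2 against RW, 1 gene of each list was higher: Ctsl (log2 change 0.81, edgeR adjusted p 0.00324), Ifngr1 (1.10, adjusted p 0.000434) and the NF-Y subunit gene Nfyb (1.47, adjusted p 0.0427). The share of all fibroblast genes past the threshold is not given here, so these calls cannot be set against it. In EC1, the lysosomal thiol reductase gene Ifi30 was higher in aN1aN2 than in aJ1aJ2 (1.59, edgeR adjusted p 0.0312), where 13.6% of all genes passed in either direction.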
